A study of Mus musculus with 27 samples.

Results

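The arrays described here came from the epididymal adipose tissue (EAT) of the 9 mice fed the control diet, out of 27 mice in the series, and each array held the RNA of 1 mouse. They were chosen by their diet alone. The mice were male C57BL/6J, arrived at 5 weeks of age, ate a standard diet for 1 week and were then fed AIN93G, a purified rodent diet, for 18 weeks. The other 18 mice ate a Western-style diet rich in fat, cholesterol and sucrose, without or with 0.05% quercetin, and appear below only where a list of genes was compared with theirs. Mice shared cages in groups of 3, and neither the cages nor the hour of killing of each mouse was given in the sources used here. Expression was measured on Affymetrix mouse GeneChips for 18193 genes, each represented by 1 probe set. Values are log2 signals after quantile normalization, so that 1 unit is a 2-fold difference in signal. With 9 arrays, each SD given here is itself imprecise.

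The epididymal depot is the largest easily dissected visceral fat pad of the male mouse. It lies against the testis, epididymis and vas deferens, is covered by mesothelium, and holds lymphoid clusters and vessels between its adipocytes. White adipocytes take up fatty acids, store them as triglyceride and secrete hormones, among them leptin (Lep), whose output rises with fat stores, and adiponectin (Adipoq). Bulk RNA of such a pad mixes all of these cells, and fewer cells of a type cannot be told apart from less RNA per cell.

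The arrays differed in quality and in what else they held. Median unnormalized signals ranged from 26.8 to 54.4. The array of control mouse 6 correlated with the other 8 at r of 0.78 to 0.83 over genes, while the highest correlation of each other array was 0.95 or 0.96. The log2 ratio of 3′ to 5′ beta-actin probe sets, which rises as RNA or its labelled copies shorten, ran from 0.84 in mouse 3 to 1.62 in mouse 8, with 1.45 in mouse 9 and 1.29 in mouse 5. Mice 2, 4 and 6 stood apart in genes described below, so spreads are given with and without them.

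The GEO extraction text of these samples names liver, whereas their tissue label names EAT, so the tissue was checked against markers. Adipoq (chr16:23146536-23157968, GRCm38.p6) was the ninth brightest gene, with signals between 13.42 and 13.52 in all 9 mice. Lep (chr6:29060221-29073876) ranked 276 of 18193, with a lowest signal of 10.50, a median of 11.94 and a highest of 12.91. Of 25 adipocyte genes listed, 21 were measured and 18 of those lay among the brightest 5% of genes (median percentile 99.6). The liver list of 14 genes had a median percentile of 30.3, and only 1 member, Cyp2e1, a cytochrome P450 at rank 21, lay in the brightest 5%. The arrays carried the adipocyte markers in every mouse.

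The brightest genes were those of lipid handling, translation and the cytoskeleton. Probe sets differ in how strongly they bind, so this order is one of signal and not of transcript number. Fabp4, which carries fatty acids inside the adipocyte, had the highest mean (13.83 ± 0.03, SD, n = 9), followed by Car3, a carbonic anhydrase of fat and muscle (13.81 ± 0.03), and Gsn, the actin-severing protein gelsolin (13.80 ± 0.04). Dbi, which binds acyl-CoA, followed at 13.66 ± 0.06 and Lgals1, galectin-1, at 13.65 ± 0.15. The first 3 were not separated beyond their spread.

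Lipid genes recurred down the list. Scd1, which desaturates fatty acids, reached 13.55 ± 0.05, and Lpl, which releases fatty acids from lipoproteins at the vessel wall, reached 13.51 ± 0.02. Cav1, the coat protein of the caveolae that crowd the adipocyte membrane, and the fatty acid transporter Cd36 stood at 13.44 ± 0.06 and 13.28 ± 0.08. The other genes among the 20 brightest were Rps29, Rplp2, Tpt1 and Eef1a1 of the translation apparatus or bound to it, the actin-binding peptide Tmsb4x, the adaptor Ywhab, the membrane protein Itm2b, the matrix glycoprotein Sparc, the mitochondrially encoded complex I subunit ND5 and the ferritin heavy chain Fth1. Among the 50 brightest, 10 encoded ribosomal proteins, 7 belonged to the adipocyte list, 3 to oxidative phosphorylation and 2 to de novo lipogenesis. Retn, the hormone resistin, had a mean of 13.07 and Cidec, a lipid droplet protein, 12.83. Ighm, the heavy chain of IgM, ranked 117 at 12.47 ± 0.44.

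The bright genes were largely shared between diets. Of the 50 brightest genes of control mice, 36 were among the 50 brightest of the Western diet group and 42 among those of the quercetin group. Fabp4 averaged 13.84 and 13.82 in these groups. Cyp2e1 was 13.21 ± 0.18 in control mice and averaged 11.88 on the Western diet and 12.76 with quercetin, values given without a test.

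**Figure D1:**
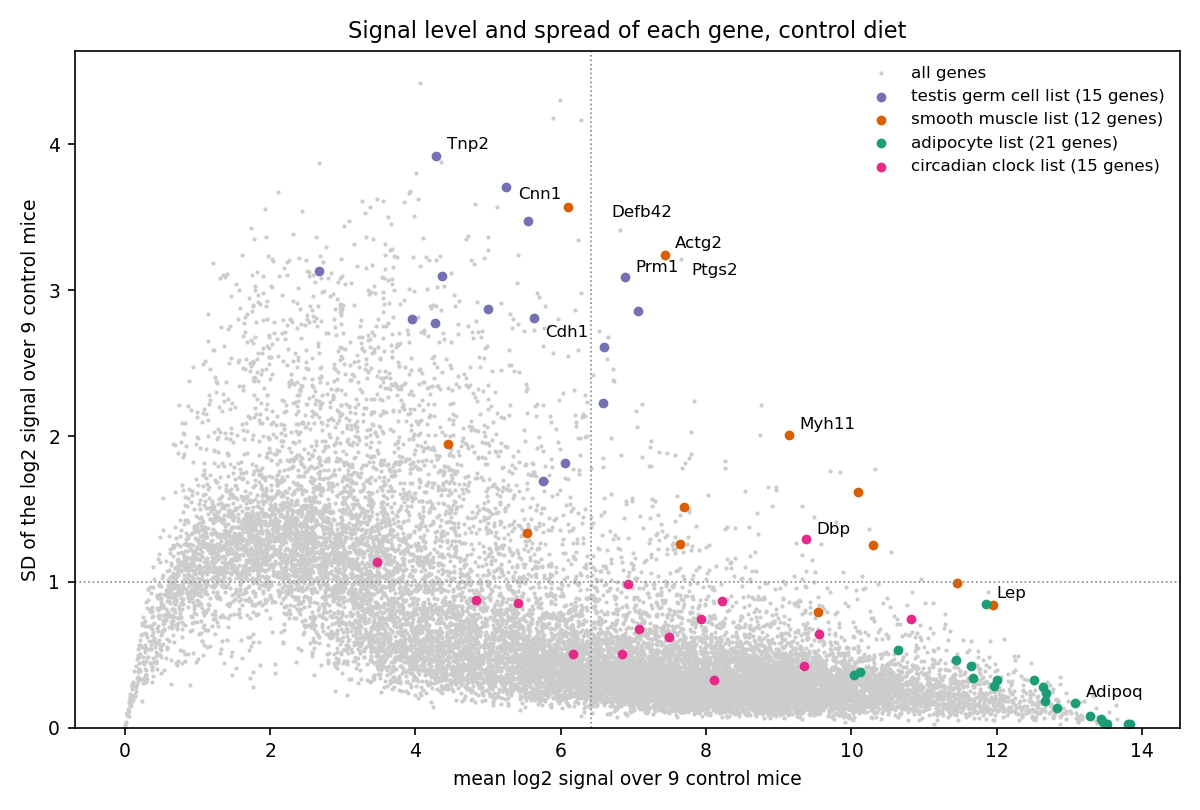
Mean log2 signal of each of 18193 genes over the 9 control mice (x axis) against its SD over those mice (y axis), with 4 gene lists in colour. The vertical dotted line marks the median mean signal of 6.42 and the horizontal one an SD of 1, and the adipocyte genes sit at high signal and low SD while genes of the testis germ cell and smooth muscle lists sit far above the SD of 1.

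The spread between mice was small for most genes with a clear signal. Among the 9096 genes above the median mean signal of 6.42, the median SD was 0.30, and 3263 genes (35.9%) had an SD under 0.25. Spread fell with signal, from a median SD of 1.29 among genes with mean signals of 2.05 to 3.18 to 0.24 among those with means of 9.82 or more. Genes below the median are therefore not ranked by spread. For a low gene, a difference of several log2 units can arise from signals close to the floor of 1, at which log2 is 0.

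The steadiest genes of the brightest 25% were partly those at the very top of the scale. Lpl (SD 0.02), Car3, Fabp4, Tpt1, Gsn and Adipoq were among the 10 with the smallest SD, and at that end of the scale quantile normalization gives every array the same top values. The SDs of these 10 genes changed with the normalization. Under a shift of each array to a common median they were 0.17 to 0.31. Adipoq then had 0.31 and Car3 0.28. Without normalization the 10 SDs were 0.07 to 0.25, with 0.07 for Adipoq and 0.08 for Car3, so some stayed small without that step. The 50 brightest genes had a median SD of 0.08. Below that range, Sem1, a small proteasome subunit, was at 11.14 ± 0.03 and Mrpl12, a mitochondrial ribosomal protein, at 9.91 ± 0.04. Rpl37a and Uqcrb, a complex III subunit, completed the 10 with means of 12.88 and 13.11. For Gsn, Lpl, Car3, Fabp4, Sem1, Rpl37a and Uqcrb, at least 1 further probe set followed the one used at r below 0.5 over the 9 mice, so their order among mice was not read.

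The adipocyte list was nearly level. Its mean lay between 11.99 and 12.49 in the 9 mice, lowest in mouse 4 and next in mouse 6. The 81 oxidative phosphorylation genes had list means of 10.73 to 10.90, and the 48 ribosomal protein genes 10.77 to 10.97. The endothelial list, with Cldn5 as its brightest member, ran from 8.51 in mouse 6 to 9.67 in mouse 7. The most variable genes of the ribosomal and oxidative phosphorylation lists were Rpl39l, Cox7b2 and Cox6b2, each a paralog known from testis and each highest in mouse 6 (11.88, 9.78 and 10.81), and Rpl3l, a paralog known from striated muscle, which was dim in every mouse (0.00 to 4.41).

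A few genes differed between mice by orders of magnitude. Of the 9096 genes above the median, 210 (2.31%) had an SD of at least 1. Mouse 6 was the highest mouse in 88 of these 210 (41.9%), against 14.0% of all genes above the median. Mice 2 and 4 were the highest pair in 73 (34.8%), against 8.72%. The other 49 followed neither pattern. The filter used the mean over all control mice. High values in mouse 6, or in mice 2 and 4, could therefore themselves bring a gene above it. Of the 20 genes of largest SD, Defb42, Actg2, Ptgs2, Prm2, Smcp, Fxyd4, Rbfox3 and Ank1 passed in this way. Pdlim3, Fbp1, Gapdhs, Kif5c and Akr1cl did so too. All of these had medians over the mice below the cut-off. The shares of 41.9% and 34.8%, and the choice of genes of largest SD, thus depend in part on the filter. Without mice 2, 4 and 6, 83 of the 9096 genes had an SD of at least 1, and 63 of these were among the 210.

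**Figure D2:**
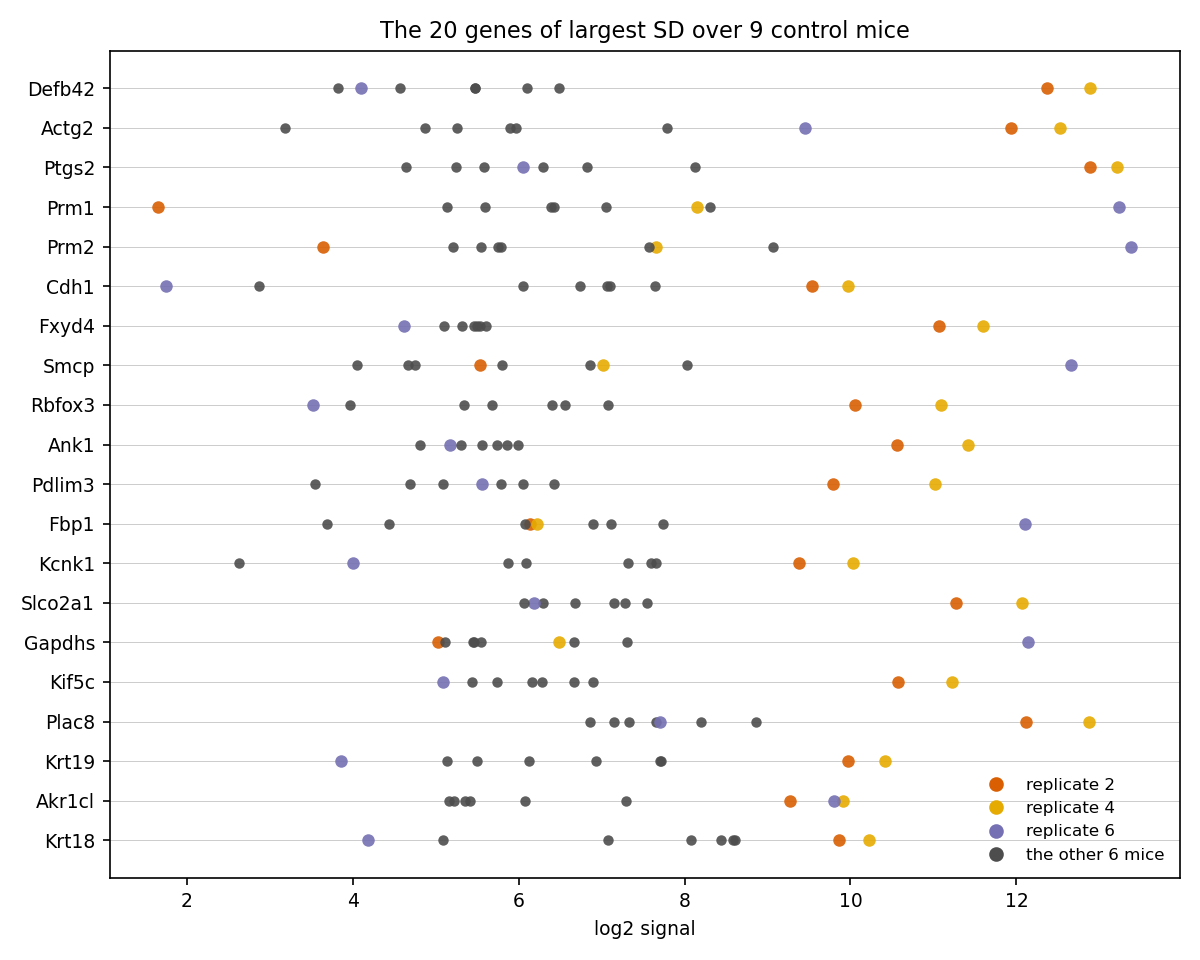
Log2 signal (x axis) of the 20 genes with the largest SD among genes above the median signal, 1 row per gene and 1 point per control mouse. Mice 2 and 4 hold the high values in 14 rows and mouse 6 in 5, and in the row of Akr1cl all 3 are high.

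Mouse 6 carried transcripts of sperm-forming cells. Prm1 (chr16:10796332-10796823), a protamine that replaces histones in sperm, had a signal of 13.24 in mouse 6, a median of 6.42 and a lowest value of 1.66 in mouse 2. Prm2, its neighbour on chromosome 16 (chr16:10791377-10792105), had 13.38 in mouse 6, 9.06 in mouse 9 and 3.64 in mouse 2. Mouse 6 lay above every other mouse in both, with mice 9, 4 and 8 next. All 15 genes of the testis germ cell list were highest in mouse 6, with a list mean of 11.93 there, 6.54 in mouse 9, 5.43 in mouse 4, 5.29 in mouse 8 and 2.96 to 4.43 in the rest.

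Other members of that list gave the same picture. Smcp, a sperm mitochondrial protein, and Gapdhs, the glycolytic enzyme of sperm, had 12.66 and 12.14 in mouse 6 against medians of 5.80 and 5.55. The transition proteins Tnp1 and Tnp2, which precede the protamines on sperm DNA, had 13.29 and 13.12 in mouse 6 and were at the floor in mouse 2. Of 137 genes above the median in which 1 mouse exceeded the next by at least 2 log2 units, 135 were high in mouse 6. Genes could pass that filter through mouse 6 itself. Of the 15 genes of the germ cell list, 4 lay above the median, and all 4 were among the 135. Ropn1l, Spa17 and Hspa4l, the first 2 encoding sperm proteins and the third a heat shock protein, were at 12.35, 12.23 and 12.49 there and at most 7.28, 7.39 and 7.72 elsewhere. Fbp1, the gluconeogenic fructose bisphosphatase, had 12.10 in mouse 6 and at most 7.74 in the others. Hspa4l had other probe sets above the median that followed the one used at r below 0.5.

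Of the genes of testis cells that do not become sperm, 4 of 5 measured Leydig genes and 5 of 7 Sertoli genes were highest in mouse 6. That mouse was highest in 14.0% of all genes above the median. All genes of these 2 lists lay below the median, where no such share was counted. The Sertoli count includes a gene also on the mesothelium list, at 7.14 in mouse 6 and 6.97 in mouse 5. Cyp17a1, which makes androgens in Leydig cells, had 9.32 in mouse 6 and at most 2.88 elsewhere, and Hsd3b1, another steroid enzyme, had 7.32 against at most 3.56. The list means of Leydig genes were 6.53 in mouse 6 and 2.68 to 3.57 in the others. Of the Sertoli list, Tsx and Rhox5 had 7.32 and 6.67 in mouse 6 against at most 3.92 and 4.32, and the list mean was 5.73 against at most 4.19. The exceptions included Cyp11a1, the first enzyme of steroid synthesis, at 3.16 in mouse 6 and 4.18 in mouse 3. Dhh, a Sertoli cell signal, was another, at 5.79 in mouse 6 and 6.19 in mouse 9. Both were below the median signal on every probe set. Further probe sets followed the one used at r of -0.49 and 0.20 for Cyp11a1 and -0.65 for Dhh, so these exceptions are uncertain. Star, which brings cholesterol into mitochondria, was at 7.25 in mouse 6 and 5.75 to 6.14 in the other mice. The epididymis list was not raised in mouse 6 (mean 2.02, the lowest of the 9 mice), with 2 of its 9 measured members at the floor.

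Mice 2 and 4 shared a different set of genes, led by smooth muscle. Actg2 (chr6:83512909-83536251), the gamma actin of visceral smooth muscle, had 11.93 in mouse 2 and 12.52 in mouse 4, then 9.46 in mouse 6 and 3.19 to 7.79 in the others. Myh11, smooth muscle myosin, had 12.27 and 12.78 against at most 9.23. Mouse 4 was the highest mouse for all 12 genes of the smooth muscle list, and mice 2 and 4 were the highest pair for 11. Among the 9096 genes above the median, mouse 4 was highest in 1328 and this pair led in 8.72%. The list means were 10.83 and 11.48 in mice 2 and 4 and 7.02 to 8.57 in the other 7.

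The size of the excess differed within the list. Cnn1, calponin, had 11.69 and 12.27 in mice 2 and 4 and at most 6.68 elsewhere. Acta2, Mylk and Tagln, which vessels also express, started higher: their signals in the other 7 mice reached 12.40, 11.74 and 10.26, and mice 2 and 4 had 13.18 and 13.34, 12.97 and 13.15, and 12.19 and 12.63. The skeletal muscle list did not move as a whole, with means of 4.02 to 5.12, but Tnnc2, a troponin C, had 10.23 and 11.34 in mice 2 and 4 and at most 5.12 elsewhere, and the skeletal actin Acta1 had 11.13 and 11.75 against at most 9.03. Pdlim3, a protein of the muscle Z line, had 9.79 and 11.02 against at most 6.43.

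The largest SD of all genes above the median belonged to a gene of mice 2 and 4 that is not a muscle gene. Defb42 (chr14:63046991-63048606), a beta-defensin, had 12.37 and 12.88 in these mice and 3.82 to 6.49 in the other 7 (SD 3.42, and 0.98 without mice 2, 4 and 6). Ptgs2, the inducible cyclooxygenase of prostaglandin synthesis, had 12.88 and 13.21 against at most 8.12. Slco2a1, a prostaglandin transporter, had 11.27 and 12.07 against at most 7.55. The groups of 2 and 7 mice did not overlap in any of these 3 genes. The genes were picked for their large SD and the split was read from the data, so this is no test. Defb42 and Ptgs2 also passed the filter only through mice 2 and 4. Mice 2 and 4 were the highest pair in 8.72% of all genes above the median.

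Epithelial and membrane genes followed. Fxyd4, a regulator of the sodium pump, had 11.07 and 11.60 in mice 2 and 4, while the other 7 lay between 4.62 and 5.61. Ank1, the membrane linker ankyrin, had 10.56 and 11.42 against at most 5.99, and Kif5c, a kinesin, 10.57 and 11.22 against at most 6.90. Rbfox3, a splicing factor best known from neurons, had 10.05 and 11.09 against at most 7.07. Plac8 had 12.11 and 12.88 against at most 8.86, and Cd52, a small surface glycoprotein of lymphocytes and of the male genital tract, 13.09 and 13.31 against at most 11.00. Prdm10, a zinc finger gene, reached 10.86 in mouse 4 and 8.84 in mouse 2. Akr1cl, an aldo-keto reductase, was high in mice 2, 4 and 6 (9.27, 9.91 and 9.80) and at most 7.29 elsewhere.

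The epididymis list held little signal in mice 2 and 4. Its means were 2.78 and 3.38, within the 2.02 to 3.79 of the other mice. Lcn5, an epididymal lipocalin, had 4.96 and 5.24 in mice 2 and 4 against at most 1.21. Adam7, an ADAM family member of the epididymal head, was instead higher in mice 9, 8 and 5 (7.04, 6.33 and 6.26) than in mice 2 and 4 (2.96 and 0.47). The list of vas deferens, seminal vesicle and prostate genes had means of 2.30 and 1.97 there. All of these means are below the median gene signal of 6.42.

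The keratins and cadherins of epithelia, which mesothelium also expresses, were high in mice 2 and 4 and also varied among the others. Cdh1, E-cadherin, had 9.53 and 9.97 in mice 2 and 4, 6.06 to 7.65 in mice 1, 3, 5, 8 and 9, 2.87 in mouse 7 and 1.75 in mouse 6. Krt19 ranged from 3.86 to 10.42, Krt18 from 4.18 to 10.22 and Krt8 from 5.14 to 10.56, with mice 6 and 7 the lowest pair in each of these 3 genes. Kcnk1, a potassium leak channel, had 2.62 in mouse 7 and 10.03 in mouse 4. Mpzl2, an epithelial adhesion protein, ran from 3.49 in mouse 7 to 8.43 in mouse 4, and Rnf128, a ubiquitin ligase, from 6.34 in mouse 8 to 9.99 in mouse 4. Upk3b, a uroplakin that marks mesothelium, was highest in mice 1 and 5 (8.96 and 9.02) and lowest in mice 8 and 9 (4.96 and 4.39). The mesothelium list means were 7.58 and 7.36 in mice 1 and 5 and 5.19 to 7.09 in the rest.

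A further set of genes, Ptgds, Lcn2 and Prom1, was low in mice 3 and 7. Ptgds and Lcn2 were highest in mouse 6, while Prom1, like the keratins, was highest in mice 4 and 2. Ptgds, a prostaglandin D synthase, had 5.03 and 5.12 in mice 3 and 7 and 6.64 to 9.95 in the other 7. Lcn2, the iron-binding lipocalin 2, had 6.78 and 5.08 against 8.19 to 9.96, and Prom1, an epithelial and stem cell membrane protein, 5.63 and 5.39 against 8.47 to 11.09. Other epithelial genes had orders of their own. Cyp2f2, a cytochrome P450, was highest in mice 9 and 5 (9.32 and 8.51) and lowest in mouse 6 (5.02). Dynlrb2, a dynein light chain of cilia, was highest in mouse 6 (10.18) and lowest in mice 4 and 3 (3.96 and 4.44). Adgrg2, an adhesion receptor of the epididymis, was lowest in mouse 3 (7.17) and highest in mouse 5 (10.78). Without mice 2, 4 and 6 the SDs of Prom1, Ptgds and Lcn2 were 2.05, 2.05 and 1.87.

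Liver transcripts were raised in mice 1 and 4. Alb, serum albumin, had 11.31 in mouse 1, 9.43 in mouse 4 and 6.10 to 8.57 in the others. Serpina1c, the protease inhibitor alpha-1-antitrypsin, had 10.77 and 9.66 against at most 6.54. The liver list means were 8.04 in mouse 1, 6.98 in mouse 4 and 3.30 to 4.92 elsewhere. Of the 14 liver genes, 13 were highest in mouse 1, against 1085 of the 9096 genes above the median. Fga, a fibrinogen chain, had 6.91 and 5.90 in these mice and at most 4.24 elsewhere. The brightest member of the liver list was different. Cyp2e1, which adipocytes also express, was highest in mouse 9 (13.47) and stood at 13.14 and 12.94 in mice 1 and 4. Mouse 1 was also highest for 6 of the 8 measured genes of vas deferens, seminal vesicle and prostate, with Svs4, a seminal vesicle secretory protein, at 8.03 there, 5.55 in mouse 8 and at most 3.78 in the others.

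**Figure D3:**
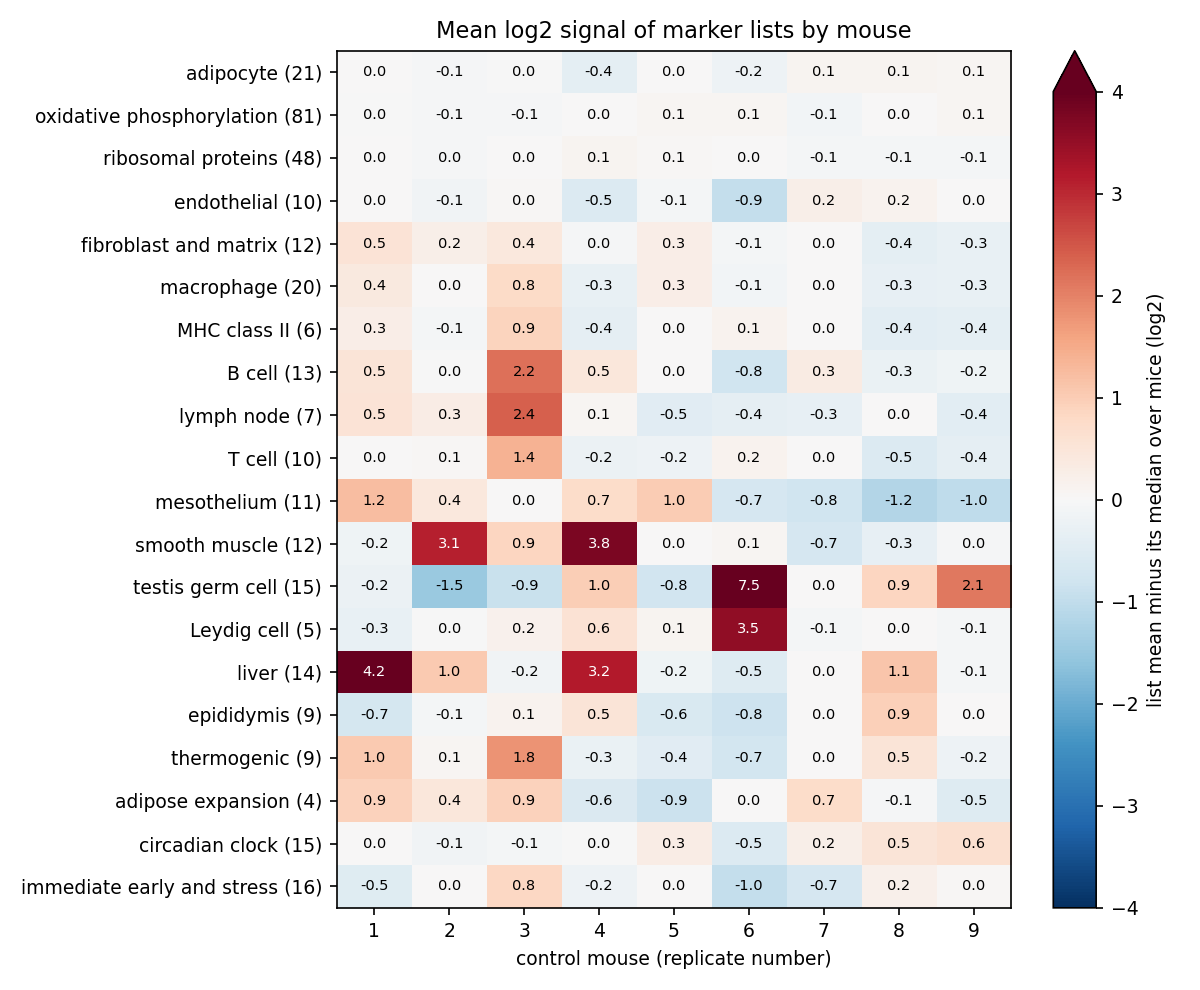
Mean log2 signal of 20 gene lists (rows, with the number of measured genes) in the 9 control mice (columns), each as the difference from the median of that list over the mice (colour and printed value). The testis germ cell list rises in mouse 6, the smooth muscle list in mice 2 and 4, the liver list in mice 1 and 4 and the lymphoid lists in mouse 3, while the adipocyte, oxidative phosphorylation and ribosomal lists stay within 0.4.

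Lymphoid genes were mostly highest in mouse 3. The B cell list had a mean of 7.59 there and 4.56 to 5.90 in the others, the T cell list 5.99 against 4.05 to 4.73, and the lymph node list 6.81 against 3.97 to 4.98. Of 13 B cell genes 12, of 10 T cell genes 8 and of 6 MHC class II genes 6 were highest in mouse 3. Of all 9096 genes above the median, 1248 were highest in that mouse. Jchain, which joins secreted IgM and IgA, ran from 7.04 in mouse 9 through a median of 9.06 to 11.76 in mouse 3. Igkv8-30, a kappa light chain segment whose probes may also bind related segments, ran from 7.35 in mouse 9 to 12.94 in mouse 3, and its SD without mice 2, 4 and 6 was 2.08. Cxcl13, the chemokine of B cell follicles, had 9.36 in mouse 3 and at most 6.96 elsewhere. Cd79a, a B cell receptor chain, Fcrl1, a B cell surface receptor, and Cd3d, a T cell receptor chain, were dim but also highest in mouse 3 (5.82, 5.73 and 7.03). Most genes of these lists were dim: 3 of 13 B cell, 1 of 10 T cell and 1 of 7 lymph node genes lay above the median signal. Those 3 B cell genes were highest in mouse 3. The T cell gene was highest in mouse 7 (7.76, with 6.49 in mouse 3). The lymph node gene, Cd52, was highest in mouse 4 (13.31, with 11.00 in mouse 3).

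Macrophage genes were also mostly highest in mouse 3. The macrophage list mean was 9.96 in mouse 3 and 8.88 to 9.61 in the others. Of its 20 genes, 16 were highest in mouse 3, against 1248 of the 9096 genes above the median. Retnla, a marker of alternatively activated macrophages, had 12.49 ± 0.31, Lyz2, lysozyme, 11.74 ± 0.52, and Csf1r, the growth factor receptor of macrophages, 11.47 ± 0.31. Cd68, a lysosomal macrophage protein, ran from 7.78 in mouse 9 to 9.56 in mouse 3. Ccl2, the chemokine that draws monocytes, and Saa3, an acute-phase protein of inflamed fat, were highest in mouse 3 (9.74 and 10.24), next in mouse 1 (8.85 and 8.92) and at most 7.49 and 7.51 in the other 7.

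Mouse 3 was likewise highest for genes of heat-producing adipocytes. Ucp1, the uncoupling protein that releases respiratory energy as heat, had 8.67 in mouse 3, 5.69 in mouse 8, 3.46 in mouse 1 and at most 1.38 in the other 6. Cidea, a droplet protein of brown and beige adipocytes, had 9.29 in mouse 3 and 6.13 to 7.15 elsewhere, and was the only gene above the median in which mouse 3 exceeded the next mouse by 2 log2 units. Cox8b, a cytochrome oxidase subunit of brown fat and striated muscle, had 10.18 and Otop1, a proton channel, 7.04 in mouse 3, against at most 9.15 and 5.83. Of the 9 thermogenic genes measured, 5 were highest in mouse 3, against 1248 of the 9096 genes above the median. Ucp1 and Cidea rose together across mice (r = 0.926, rho = 0.933, n = 9, exact permutation p adjusted over 10 pairs 0.00118 and 0.0075). Without mice 3 and 8, the farthest from the median of Ucp1, r was 0.729. Ucp1 was close to the floor in most mice, and at a floor of 32 the adjusted exact permutation p of r was 0.0694, past the threshold of 0.05.

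Immediate early genes, which cells switch on within minutes of a stimulus or of handling, were also highest in mouse 3 for 9 of 16 genes. For all genes above the median the count was 1248 of 9096. Fos had 12.27 in mouse 3, a median of 10.97 and a lowest value of 10.17. Egr1 was brighter and steadier (11.91 ± 0.36) and was highest in mouse 8 (12.42), while Dusp1, a phosphatase of MAP kinases, was at 12.22 in mouse 8 and 12.20 in mouse 3. Egr2 and the heat shock gene Hspa1a had larger SDs (1.05 and 1.10) and were highest in mouse 4 (8.06 and 9.60). Fos and Egr1 did not pass the test across mice (r = 0.595, rho = 0.533, adjusted exact permutation p 0.153 and 0.246).

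Circadian clock genes divided the mice another way. In the clock, Arntl (also named Bmal1) and its partner bind E-boxes and switch on the genes of PAR bZIP factors such as Dbp and Tef, which bind D-boxes, while Nr1d2 and related receptors repress Arntl. Dbp (chr7:45705100-45710203) had the largest SD of the 15 clock genes among those above the median (1.30). It was at 10.09 to 11.13 in mice 5, 7, 8 and 9, at 9.41 in mouse 4 and at 7.38 to 8.43 in mice 1, 2, 3 and 6. Arntl (chr7:113178471-113314126) was at 8.07 to 8.23 in mice 1, 2 and 3, at 7.09 in mouse 4 and at 5.73 to 6.57 in mice 5 to 9. Mice high in Dbp were low in Arntl, with mouse 6 low in both.

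Of the other clock genes, Ciart, Per3 and Tef are shown with the stretch around their RefSeq transcription start (GRCm38.p6). They were picked because E-box letters (CACGTG) or D-box letters (TTATGTAA, or TTACATAA on the other strand) can be seen in them. Each run holds 250 bases before the start and 50 after it, 5′ to 3′ on the gene's strand, in lower case with E-box and D-box letters in capitals.
Ciart, chr3:95882179-95882478, minus strand: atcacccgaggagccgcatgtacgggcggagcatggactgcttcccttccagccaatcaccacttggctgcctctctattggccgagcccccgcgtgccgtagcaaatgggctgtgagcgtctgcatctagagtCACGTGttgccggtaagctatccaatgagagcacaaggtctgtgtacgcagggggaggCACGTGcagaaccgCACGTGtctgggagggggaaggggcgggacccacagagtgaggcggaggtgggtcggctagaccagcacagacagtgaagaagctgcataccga
Per3, chr4:151044616-151044915, minus strand: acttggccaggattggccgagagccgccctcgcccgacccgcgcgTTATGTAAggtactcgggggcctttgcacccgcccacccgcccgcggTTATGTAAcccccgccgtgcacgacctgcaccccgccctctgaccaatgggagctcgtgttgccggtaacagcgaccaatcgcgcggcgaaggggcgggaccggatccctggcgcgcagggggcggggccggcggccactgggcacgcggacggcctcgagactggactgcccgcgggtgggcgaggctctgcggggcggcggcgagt
Tef, chr15:81802423-81802722, plus strand: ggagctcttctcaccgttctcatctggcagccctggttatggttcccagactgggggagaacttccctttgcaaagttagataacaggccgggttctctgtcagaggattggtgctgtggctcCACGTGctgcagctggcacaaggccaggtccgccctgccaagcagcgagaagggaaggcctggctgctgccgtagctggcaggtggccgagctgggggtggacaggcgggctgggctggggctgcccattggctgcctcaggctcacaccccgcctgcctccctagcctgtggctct
Ciart, a clock repressor, has 3 E-boxes in this window, Per3, a period protein gene, has 2 D-boxes, and this start of Tef has 1 E-box. Of 32851 such promoters in the RefSeq table, 7.15% hold the E-box letters and 0.938% the D-box letters on either strand. Counted by gene, with a match in any promoter of the gene, the shares are 8.09% and 1.11% of 27025 genes. Of the 14 clock genes with a promoter there, 5 hold an E-box (Bhlhe41, Ciart, Cry1, Per1 and Tef) and 1 holds a D-box. A match of letters is a description of the sequence and says nothing of binding in these mice.

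Tef had the same order of mice as Dbp, while Per3 and Ciart followed that order only in part. Per3 was at 9.14 to 9.43 in mice 5, 8 and 9, at 8.26 and 8.39 in mice 7 and 4 and at 7.27 to 7.53 in mice 1, 2, 3 and 6. Tef was at 9.81 to 10.40 in mice 5, 7, 8 and 9 and at 8.81 to 9.07 in mice 1, 2, 3 and 6. Ciart, whose signals of 4.30 to 6.62 lay mostly below the median gene, was highest in mice 8, 9 and 7 and was at 5.72 in mouse 6 and 4.97 in mouse 5. Nr1d2, the brightest clock gene, was at 11.22 to 11.66 in mice 4, 5, 7, 8 and 9 and at 9.78 to 10.32 in the other 4.

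Dbp and Arntl correlated at r = -0.813 and rho = -0.833 over the 9 mice, with exact permutation p values adjusted over 10 pairs of 0.0645 and 0.0359. Without mice 3 and 9, r was -0.709, and without mouse 6 it was -0.964. The adjusted p of r missed 0.05 and that of rho did not. The actin 3′ to 5′ ratio was highest in mice 8, 9 and 5, which were also among the 4 mice high in Dbp, while the Gapdh ratio was highest in mice 8, 9 and 7. The part of RNA length in this pattern was not tested.

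**Figure D4:**
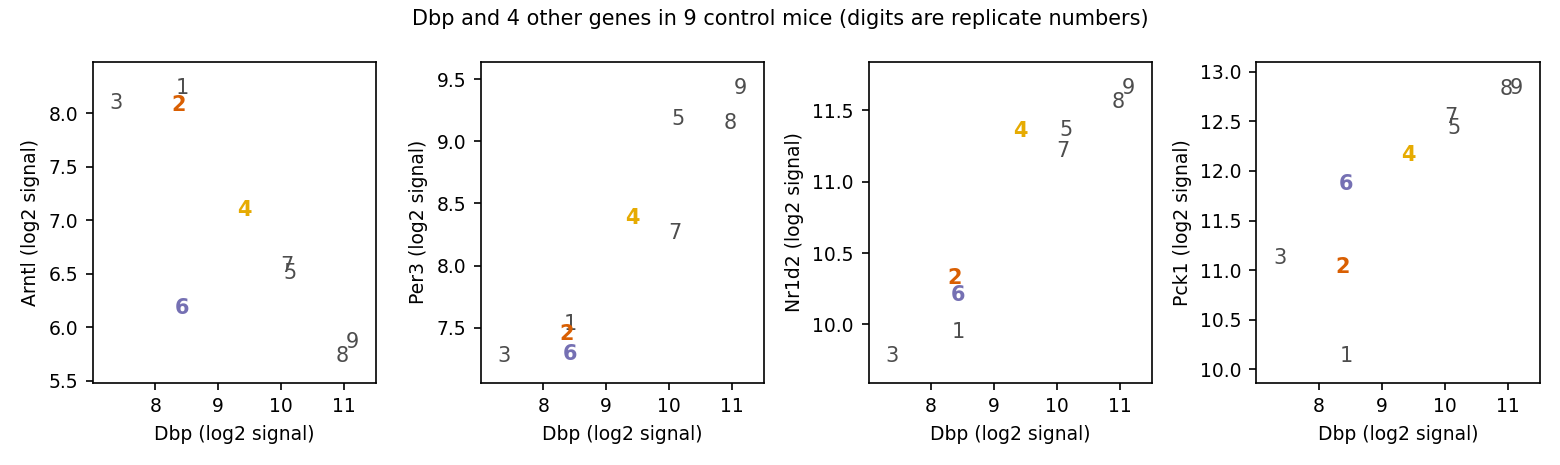
Log2 signal of Dbp (x axis) against those of Arntl, Per3, Nr1d2 and Pck1 (y axes), with each control mouse drawn as its replicate number. Mice 5, 7, 8 and 9 lie at the right in every panel, with low Arntl and high Per3, Nr1d2 and Pck1, and mouse 6 departs in the Arntl panel.

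Genes of fuel use ran alongside, chosen here after their values were seen. Pck1, which makes the glycerol backbone of triglyceride in fat and responds to fasting, was at 12.43 to 12.83 in mice 5, 7, 8 and 9 and at 10.13 to 12.16 in the other 5. Irs2, an insulin receptor substrate, was at 8.63 to 9.38 in the same 4 mice and at 6.72 to 7.49 in the other 5. Angptl8, an insulin-induced inhibitor of lipoprotein lipase, was at 8.91 to 9.65 in mice 1, 2 and 3 and at 5.57 to 6.97 in the others. A short fast before killing is stated in the study only for its quercetin measurements, and no feeding state was given for each mouse.

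Lep was the most variable gene of the adipocyte list. Its signal was 12.60 to 12.91 in mice 1, 2 and 3, 12.28 in mouse 7, 11.94 in mouse 6, 11.06 to 11.37 in mice 4, 5 and 8, and 10.50 in mouse 9, a 5.33-fold range of signal. The SD was 0.85, and 1.00 without mice 2, 4 and 6. Pparg, the master regulator of adipocytes, came next in spread within that list (SD 0.54), but its low values were in mice 4 and 6 (9.53 and 9.93), and its SD without mice 2, 4 and 6 was 0.11. Lep thus kept its spread when the 3 mice were left out and Pparg did not.

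Genes were ranked by how closely they followed Lep over the 9 mice, among the genes above the median. The highest r belonged to Paqr9, a membrane receptor family member (0.979), Pfkfb4, a regulator of glycolysis (0.978), Sesn3, a sestrin (0.974), Cdca7l (0.961), Rnf11, a ubiquitin ligase adaptor (0.961), and Oxtr, the oxytocin receptor (0.960). The lowest belonged to Slf2 (-0.973), Gm32031 (-0.957), Rnf144b (-0.951), the carboxylesterase Ces1f (-0.946), Zmat1 (-0.940) and Klhl2 (-0.937). Without mice 2, 4 and 6 all 12 stayed at or beyond 0.958 in size with the same sign. These genes were picked for their r, so no test is given. Paqr9 ran from 7.90 in mouse 9 to 10.28 in mouse 3, Oxtr from 6.70 in mouse 9 to 10.18 in mouse 1, and Ces1f the other way, from 9.44 in mouse 2 to 11.46 in mouse 5.

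Genes that mark expanding fat varied on a similar scale. Sfrp5, a secreted Wnt inhibitor, ran from 7.75 in mouse 9 through a median of 9.96 to 10.76 in mouse 1, and Mest, an imprinted gene tied to fat pad growth, from 9.57 in mouse 5 through 11.12 to 11.92 in mouse 3. Npr3, which clears natriuretic peptides, and Trp53inp2 had smaller SDs (0.40 and 0.53). Fgf13, chosen after its values were seen, was at 10.88 to 11.28 in mice 1, 2, 3 and 7 and at 7.58 to 10.08 in the others.

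None of the tested pairs with Lep passed after adjustment over 10 pairs. Lep and Mest had r = 0.644 and rho = 0.733 (adjusted exact permutation p 0.131 and 0.0622, n = 9), and r = 0.767 without mice 1 and 9. Lep and Adgre1, the macrophage marker F4/80, had r = 0.730 and rho = 0.767 (adjusted exact permutation p 0.085 and 0.0535), and r = 0.635 without mice 1 and 9. Lep and Adipoq had r = 0.060 and rho = 0.084 (adjusted exact permutation p 0.872 and 0.924), with Adipoq near the top of the scale. Lep and Fasn, fatty acid synthase, had r = -0.210 and rho = -0.433 (adjusted exact permutation p 0.647 and 0.357). Without mice 1 and 9, r was -0.277 for Adipoq and -0.068 for Fasn.

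Mest and Sfrp5 had r = 0.719 and rho = 0.817 (adjusted exact permutation p 0.0853 and 0.0359), and r = 0.511 without mice 4 and 5, so that rho passed and r did not. Fasn and Elovl6, an elongase of the same pathway, had r = 0.425 and rho = -0.017 (adjusted exact permutation p 0.364 and 0.982), and r = -0.347 without mice 4 and 6. The value of r for this pair rested on mouse 6, which was lowest in both genes (12.17 and 7.77). Cd79a and Cd3e, chains of the B and T cell receptors, had r = 0.267 and rho = 0.333 (adjusted exact permutation p 0.62 and 0.482), and r = -0.048 without mice 3 and 6, at signals of at most 5.82. Without mice 3 and 7, r for Fos and Egr1 was 0.763.

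**Figure D5:**
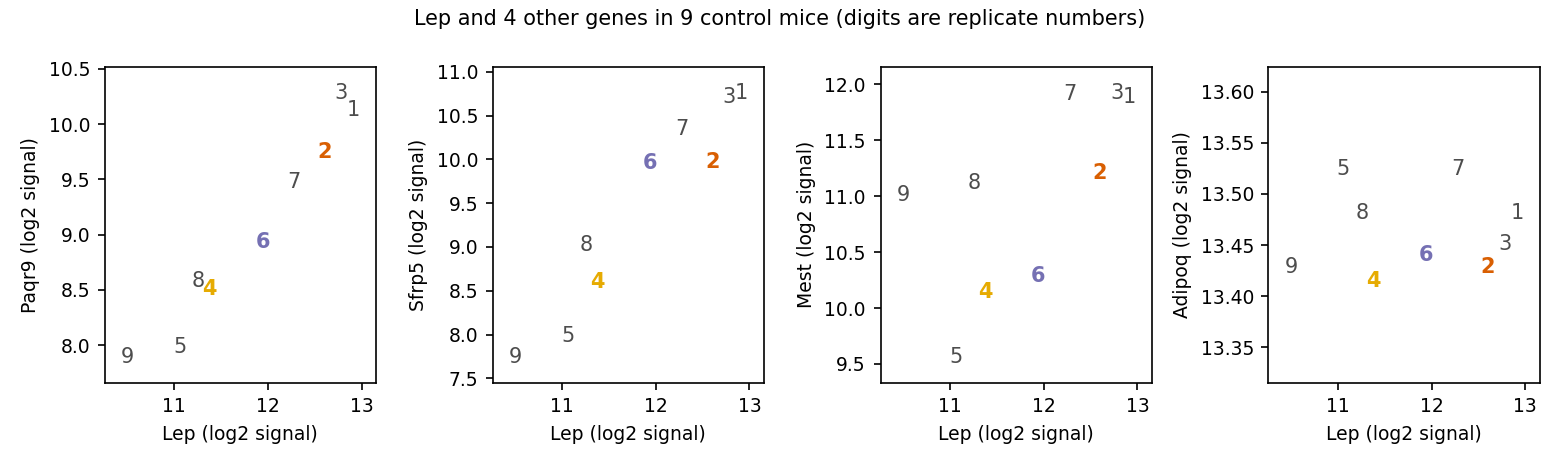
Log2 signal of Lep (x axis) against those of Paqr9, Sfrp5, Mest and Adipoq (y axes), with each control mouse drawn as its replicate number. Paqr9, chosen for its r with Lep, lies along a line, Sfrp5 and Mest spread more widely, and Adipoq spans only 13.42 to 13.52.

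The mice low in Lep (4, 5, 8 and 9) included the 3 with the highest actin 3′ to 5′ ratios (mice 8, 9 and 5) and mouse 4, which had the lowest adipocyte list mean. In mice 1, 2 and 3 the ratios were 1.18, 0.87 and 0.84. The same ratio for Gapdh was highest in mice 8 and 9 (0.50 and 0.42) but was -0.07 in mouse 5 and 0.08 in mouse 4, below the 0.33 and 0.23 of mice 7 and 1. The part of RNA length and of adipocyte content in the spread of Lep was not tested.

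The most variable genes were also ranked in the other diet groups, in each among the genes above that group's own median signal. Of the 50 genes with the largest SD in control mice, 5 were among the 50 of the Western diet group and 9 among those of the quercetin group. Without mice 2, 4 and 6 the numbers were 9 and 16. These counts do not show that the spread belonged to the control mice, since genes that were dim in the other groups could not enter their lists. Cdh1 had an SD of 2.72 in control mice, 2.20 on the Western diet and 2.70 with quercetin, at mean signals of 3.50 and 4.06 in the latter groups. Krt18 had SDs of 2.03, 2.01 and 1.92, at means of 5.41 and 5.59 in the latter groups. Prm1 had 3.09, 3.08 and 1.61, at means of 4.89 and 6.22 there. Its control SD was 1.12 without mice 2, 4 and 6. These means lay below the control median of 6.42, and spread was larger for dim genes, so the SDs are not compared. Ranked by the median absolute deviation, which a few high mice move less, 23 of the 50 were the same, and the 10 largest were Actg2, Prm2, Jchain, Kcnk1, Krt19, Cyp2f2, Rnf128, Dynlrb2, Krt18 and Mpzl2.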

How the data were processed

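Total RNA of each mouse was labelled with biotin and hybridized to 1 Affymetrix whole-genome mouse GeneChip. The authors processed the scans with Microarray Suite (MAS5) and GeneSpring, and the deposited table holds linear intensities of 45101 probe sets, which were not log-transformed. Here, intensities of all 27 arrays were quantile normalized, floored at 1 and log2-transformed. Of the probe sets, 34945 named 1 gene in GEO's platform annotation, 932 named several and 9160 none; 64 controls were left out. For a gene with several probe sets, the one brightest on average across 27 arrays was used, with symbols updated to RefSeq GRCm38.p6 for 34741 probe sets.

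Genes were ranked by mean signal and by SD over the 9 control mice, the latter among the 9096 genes above the median mean. Named genes were the 20 brightest, the 20 of largest SD and 10 of largest median absolute deviation, the 10 steadiest of the brightest 25%, Adipoq and Lep, the 3 brightest and 2 most variable of each of 34 lists, genes far higher in 1 mouse, genes of the 10 pairs and the 6 highest and 6 lowest correlates of Lep. Genes named outside this rule were chosen after their values were seen: Adgrg2, Angptl8, Ccl2, Ciart, Cidec, Fgf13, Igkv8-30, Irs2, Marcks, Myh11, Pck1, Per3, Prom1, Ptgds, Retn and Upk3b. The 10 pairs were tested by two-sided exact permutation of mice, adjusted by Benjamini-Hochberg. The members, lists and pairs were chosen with earlier results of these data known. Python 3.11.15, NumPy 2.4.6, SciPy 1.17.1 and pandas 2.3.3 were used. Alternatives were other normalizations, floors, probe set rules and filters, and leaving out mice.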

Additional observations from a re-analysis of the deposited data

Results flagged for a closer look

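In each group of 9 values, the gap between the most extreme mouse and its neighbour was divided by the whole range. A share above 0.493 was taken as a mouse far from the others, which chance alone gives in about 1 of 20 groups. Among the 9096 genes above the median signal, 1790 (19.7%) passed, as did 20 of 144 genes named in the report and 7 of 34 lists. The share was thus lower among the named genes than among all genes above the median, and about the same among the lists. Some named genes were also picked for a large gap or SD.

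Mouse 6 was far above the others in 13 of the named genes: Cox6b2 (0.818), Cox7b2 (0.546), Cyp17a1 (0.692), Fbp1 (0.519), Gapdhs (0.679), Hsd3b1 (0.514), Hspa4l (0.829), Ropn1l (0.792), Rpl39l (0.535), Smcp (0.538), Spa17 (0.756), Star (0.742) and Tnp2 (0.543). It was so too for the lists of testis germ cells (0.600), Leydig cells (0.769) and Sertoli cells (0.518). Mouse 3 was far above the others in Cidea (0.677) and Cxcl13 (0.568) and in the lists of T cells (0.646), B cells (0.557) and lymph node (0.647). It also passed in Tmsb4x (0.536), but at 13.55 against at most 13.43 elsewhere, a narrow range near the top of the scale. Mouse 1 was far above the others in the list of vas deferens, seminal vesicle and prostate (0.574).

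On the probe sets used, the lowest mouse was mouse 1 in Gsn (0.532) and Lpl (0.510), and mouse 4 in Lgals1 (0.541), each at or above 13.28. For Gsn and Lpl further probe sets followed the one used at r below 0.5 (0.33, 0.26 and 0.02 for Gsn and -0.08 for Lpl), so no low mouse is read from them.

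Marcks, a substrate of protein kinase C, was far lower in mouse 3 than in the others (0.830), at 8.86 against 11.16 to 11.62. On the 4 other Marcks probe sets above the median, mouse 3 was the highest mouse on 2 and the next to highest on 2, so the low value was not seen outside the probe set used.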

How the results depend on the processing

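No paired analysis was possible because only the control mice were described and no groups were compared. Of the 50 brightest genes, 27 remained when a gene's probe sets were averaged, and 48 to 50 when 1 mouse was left out. The count of genes with an SD of at least 1 (210) was 4549 without the filter on dim genes, 81 without mice 2, 4 and 6 with the filter set anew, and 147 to 258 with 1 mouse left out. Of the 50 most variable genes, 19 remained with averaged probe sets, 23 by the median absolute deviation, 2 without the filter, 12 without mice 2, 4 and 6, and 32 to 47 with 1 mouse left out, the fewest without mouse 4. Genes high in 1 mouse (137) numbered 86 under a median shift, 6 without mice 2, 4 and 6, and 3 to 187 with 1 mouse left out, with 3 left without mouse 6.

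Pairs gave these r values with adjusted exact permutation p below 0.05: without normalization, Dbp and Arntl -0.908, Fos and Egr1 0.766, Lep and Adgre1 0.778, Lep and Mest 0.731, and Mest and Sfrp5 0.785; without mice 2, 4 and 6, Dbp and Arntl -0.962. Ucp1 and Cidea at a floor of 32 gave 0.963, with an adjusted exact permutation p of 0.0694. Signs turned for Fasn and Elovl6 without mice 2, 4 and 6 (-0.402), and for Lep and Fasn under a median shift (0.0861) and without normalization (0.0166). With 1 mouse left out, r ranged from -0.0944 (without mouse 3) to 0.578 for Cd79a and Cd3e, -0.964 to -0.761 for Dbp and Arntl, -0.330 (without mouse 6) to 0.599 for Fasn and Elovl6, 0.491 to 0.791 for Fos and Egr1, 0.676 to 0.847 for Lep and Adgre1, -0.176 to 0.325 for Lep and Adipoq, -0.349 to -0.041 for Lep and Fasn, 0.569 to 0.807 for Lep and Mest, 0.610 to 0.866 for Mest and Sfrp5 and 0.841 to 0.972 for Ucp1 and Cidea. Calls changed with 1 mouse left out: the adjusted exact permutation p fell below 0.05 for Dbp and Arntl without mouse 6 (r -0.964), for Lep and Adgre1 without mouse 5 (0.847) and for Mest and Sfrp5 without mouse 6 (0.824) or mouse 9 (0.866). The sign of Lep and Adipoq turned without mouse 1, 4, 7 or 9. The cause of these shifts was not tested. Of 35 named genes with a further probe set above the median, 15 had one that followed the probe set used at r below 0.5. Signals close to background limit all genes below the median.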
